A study of Mus musculus with 6 samples.

Results

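Transcripts of 10 genes that sense oxygen or hold pyruvate back from the mitochondrion were followed in LSK cells (lineage-/Sca1+/cKit+), the fraction of mouse bone marrow (BM) that holds haematopoietic stem cells (HSCs) and early progenitors. The genes are *Hif1a*, *Epas1*, *Egln1*, *Egln3*, *Vhl*, *Pdk1*, *Pdk2*, *Pdk3*, *Slc2a1* and *Vegfa*. They were chosen by name, and every probe that the array's annotation assigns to one of them was taken, which gave 20 probes of 56605 on the array and 10 genes of 37074. The arrays compare 3 control samples (Atg5w/w;VaviCre+) with 3 samples labelled Atg5f/f;VaviCre+, written Atg5f/f;Vav here. All came from C57BL/6 mice at postnatal day 6 to 8, and both groups carry the VaviCre transgene, which is active in blood-forming cells and their descendants. *Atg5* is needed to build autophagosomes, and its loss in these mice was used to ask what autophagy does in HSCs around birth. Whether a sample came from 1 mouse or several is not given, so SDs and p-values describe the spread between arrays.

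Cells sense oxygen through the stability of a protein. Prolyl hydroxylases (*Egln1*, *Egln3*) use oxygen to mark HIF-1α (*Hif1a*) and HIF-2α (*Epas1*), and the VHL ubiquitin ligase (*Vhl*) then sends the marked protein to the proteasome. In low oxygen the factors persist and switch on genes such as the glucose transporter *Slc2a1*, the growth factor *Vegfa* and *Pdk1*. Pyruvate dehydrogenase kinases (*Pdk1*, *Pdk2*, *Pdk3*) phosphorylate and shut the enzyme complex that turns pyruvate into acetyl-CoA, and HSCs in the BM are known for relying on glycolysis. Arrays measure transcripts and do not show the stability of HIF proteins or the activity of the kinases.

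The DNA letters that HIF complexes recognise are short, and they are shown here because these factors reach their target genes through them. The 250 bases before the start of transcription were searched on both strands for ACGTG and for GCGTG in the RefSeq promoters (build GRCm38.p6). Of the 10 genes, 9 had a promoter there and *Epas1* was not matched. ACGTG was present for 7 genes and GCGTG for 5, with 8 carrying at least 1 of them. Among all 32851 promoters, 16.6% held ACGTG and 28.2% held GCGTG in this window. These shares are per promoter, whereas the counts above are per gene, over any of its starts (12 promoters for the 9 genes). The match nearest to the start is printed with its flanks for 6 of the genes, with ACGTG in capitals. That of *Pdk2* lies inside CACGTG, a palindrome that matches on both strands and is also the E-box. *Vegfa* had matches before another of its annotated starts and none before the most upstream one, and they are not printed. *Vhl* had no match. *Pdk1* had GCGTG alone, 78 bases before the start. A match in this window is a string of letters and not a measured binding site.
*Slc2a1* (chr4:119108684-119108738, + strand, match 36 bases before the start): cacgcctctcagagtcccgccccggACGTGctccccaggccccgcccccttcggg
*Egln1* (chr8:124949293-124949347, − strand, 68 bases before): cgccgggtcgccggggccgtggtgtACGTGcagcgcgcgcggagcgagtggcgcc
*Pdk2* (chr11:95041467-95041521, − strand, 125 bases before): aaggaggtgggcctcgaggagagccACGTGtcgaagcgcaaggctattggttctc
*Egln3* (chr12:54204074-54204124, − strand, 229 bases before): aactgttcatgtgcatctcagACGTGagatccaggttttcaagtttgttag
*Hif1a* (chr12:73907772-73907826, + strand, 70 bases before): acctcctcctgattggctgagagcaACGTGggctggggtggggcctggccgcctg
*Pdk3* (chrX:93832174-93832228, − strand, 53 bases before): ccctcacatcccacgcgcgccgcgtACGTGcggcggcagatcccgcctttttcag

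Each sample was hybridised to its own 1-colour Agilent array of 60-mer probes designed on mm9. All 6 arrays shared 1 slide and 1 scan, with each group in a slide row of its own, so genotype cannot be told apart from the row. Values are log2 intensities relative to each array's 75th percentile, and a difference is the mean of the arrays labelled Atg5f/f;Vav minus that of the controls. Probes well above background on at least 3 arrays were tested with limma, and a probe is called when its adjusted p over all 32074 tested probes is under 0.05. By that rule 34.1% of all 20778 genes tested were called, 18.7% higher and 15.3% lower, around a median difference of −0.03. *Atg5* itself was higher in the arrays labelled as its deletion, at 1.46, 1.51 and 1.74 against 1.10, 0.93 and 1.06 (limma adjusted p = 0.021). Whether its probe lies in the deleted part was not determined, so every direction below rests on the labels. The LSK markers were all well above background on every array. Of the 6, *Ly6a* (Sca-1), named after its value was seen, was called higher by 2.97-fold (limma adjusted p = 0.0062), and 5 were not called. The summed signal of 10 stem cell markers was lower in the arrays labelled Atg5f/f;Vav (3.69 to 4.75) than in controls (5.39 to 5.46), with 5 of the 10 called lower. Probes well above background made up 57.6% to 58.1% on control arrays and 51.6% to 54.8% on the others.

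All 10 genes passed the filter on dim probes, through 19 of their 20 probes. *Pdk2* and *Vegfa* were called lower in the arrays labelled Atg5f/f;Vav, none of the 10 was called higher, and 8 were not called. At an unadjusted p under 0.05 there were 3, the additional gene being *Pdk3*, which was higher. The share of all genes at that unadjusted p was not computed, and it cannot be below the 34.1% called after adjustment. The median difference of the 10 genes was −0.07. The groups did not overlap for 3 genes, *Pdk2*, *Pdk3* and *Vegfa*, whereas they did not overlap for 56.0% of all genes. Counted by probe, 1 was called higher and 3 lower of the 19 tested, and 6 did not overlap. Over all probes, 34.4% were called, 17.3% higher and 17.1% lower, and 55.4% did not overlap. By direction, 20% of the 10 genes were called lower beside 15.3% of all genes, and 0 were called higher beside 18.7%.

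**Figure D1:**
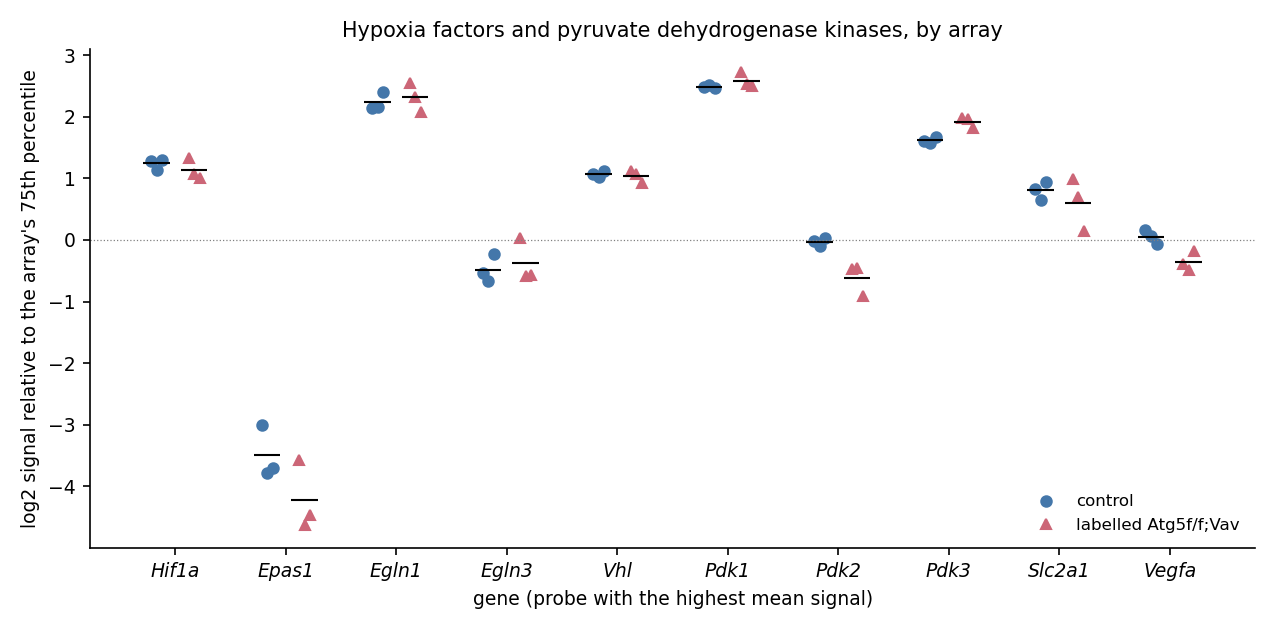
Log2 signal relative to the array's 75th percentile (vertical axis) for the brightest probe of each of the 10 genes (horizontal axis), with 3 control arrays as circles, 3 arrays labelled Atg5f/f;Vav as triangles and each group's mean as a bar. *Pdk2* and *Vegfa* lie lower and *Pdk3* higher in the labelled arrays with no overlap, while the other 7 genes overlap. Heights of different genes come from different probes and are not comparable.

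*Hif1a*, which encodes the oxygen-regulated part of HIF-1, showed no called difference. Its brightest probe (mm9 chr12:75047819-75047878) gave 1.29, 1.14 and 1.30 in controls against 1.32, 1.07 and 1.01 in the arrays labelled Atg5f/f;Vav. The highest and the lowest array both carried the Atg5f/f;Vav label, and the groups overlapped. The difference was −0.11 ± 0.13 (SE, limma adjusted p = 0.53), with a 95% interval from −0.41 to 0.19. A dim probe annotated to *Hif1a* on the opposite strand differed by −0.27 (adjusted p = 0.35). Another was well above background on 1 control array alone and was not tested.

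*Epas1*, which encodes HIF-2α, was dim. It was well above background on 3 control arrays and on 1 array labelled Atg5f/f;Vav, so it passed the filter mainly through the controls. Its values were −3.00, −3.78 and −3.70 in controls against −3.57, −4.63 and −4.46. A pair of arrays labelled Atg5f/f;Vav lay below every control and the remaining one lay among them. The difference in measured signal was −0.73 ± 0.33 and was not called (adjusted p = 0.12). It was −0.26 with normexp background correction and −0.42 under quantile normalisation. The array labelled Atg5f/f;Vav that was above background is replicate 1, so the size of the difference has little support on that side. *Epas1* is known to be strongly expressed in endothelial cells, and the summed signal of 7 endothelial markers was also lower, at 2.29 to 2.95 against 3.30 to 3.42 in controls. Of the 6 endothelial markers tested, 1 was called higher and 1 lower, and *Cdh5*, a defining one, was not well above background on any array. The part of such cells in the *Epas1* signal was not tested. In bulk RNA, fewer cells of a type and less RNA per cell cannot be told apart.

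No difference larger than the spread between arrays was found for the hydroxylases or *Vhl*. *Egln1*, the main prolyl hydroxylase for HIF-1α, gave 2.14, 2.15 and 2.41 in controls and 2.54, 2.33 and 2.08 in the arrays labelled Atg5f/f;Vav, a difference of 0.08 (95% interval −0.28 to 0.45, adjusted p = 0.69). *Egln3*, a prolyl hydroxylase whose own transcript is induced by hypoxia, gave −0.54, −0.67 and −0.23 against 0.04, −0.58 and −0.56. Replicate 1 alone stood above the controls, and the difference was 0.11 (95% interval −0.38 to 0.61). *Vhl*, the part of the ligase that recognises hydroxylated HIF, had a narrow interval. Its values of 1.07, 1.03 and 1.12 in controls and 1.11, 1.08 and 0.92 gave a difference of −0.03 (95% interval −0.29 to 0.22, adjusted p = 0.82). The signs of *Egln1* and *Egln3* turned with the scaling and that of *Vhl* with 1 array, so none of them has a direction here.

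The kinases did not share a direction. *Pdk2* fell, *Pdk3* was higher at both of its probes with 1 of them called, and the *Pdk1* probes ranged from −0.60 to 0.10.

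*Pdk2*, the most widely expressed of the kinases, has 1 probe (mm9 chr11:94887669-94887728). Its signal was −0.02, −0.10 and 0.02 in controls and −0.48, −0.45 and −0.91 in the arrays labelled Atg5f/f;Vav. Every array with that label lay below every control, and replicate 3 was the lowest. The fall was 1.50-fold, −0.58 ± 0.15 on the log2 scale (limma adjusted p = 0.028). The call was lost when any 1 control array was left out, with adjusted p from 0.070 to 0.094 and a difference of −0.62 to −0.56. The genes whose signal followed *Pdk2* most closely over the 6 arrays, among 18381 genes above background on all of them, were *Isoc2b* (Pearson r = 0.999), *1110035E04Rik* (r = 0.999) and *Zfp456* (r = 0.998). With 6 arrays in 2 groups, such values describe a shared profile and carry no test.

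*Pdk3*, a kinase encoded on the X chromosome, was measured by a pair of probes. The brighter one (mm9 chrX:91009951-91010010) gave 1.60, 1.57 and 1.68 in controls and 1.98, 1.96 and 1.82 in the arrays labelled Atg5f/f;Vav. The groups did not overlap, and the difference of 0.30 ± 0.11 was not called (adjusted p = 0.062). The dimmer probe gave −0.09, −0.33 and −0.18 against 0.28, 0.18 and 0.37, and it was called higher by 1.39-fold (0.48 ± 0.12, adjusted p = 0.025). The brighter probe was called without Atg5f/f;Vav replicate 3 (adjusted p = 0.047). The dimmer one lost its call without any 1 control array (adjusted p = 0.052 to 0.094) and when arrays were scaled to a 75th percentile of the probes above background everywhere, under which it differed by 0.27 (adjusted p = 0.079) and the brighter one by 0.10.

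*Pdk1*, the kinase best known as a HIF-1 target, was measured by 5 probes, which is the most of the 10 genes. Near the 3′ end its brightest probe gave 2.48, 2.51 and 2.47 in controls and 2.73, 2.53 and 2.49 in the arrays labelled Atg5f/f;Vav (0.10 ± 0.11, adjusted p = 0.50). A neighbouring probe gave the same 0.10. Scaled to a 75th percentile of the probes above background everywhere, both turned to −0.11, so these probes have no settled sign. The 3 probes further upstream in the gene all had negative differences. The probe at mm9 chr2:71722122-71722181, which is annotated to a separate *Pdk1* transcript, gave −0.73, −0.67 and −0.85 in controls against −1.45, −1.44 and −1.15, without overlap. It was called lower by 1.52-fold (adjusted p = 0.019), and it lost the call without control replicate 1 (adjusted p = 0.074) or 2 (adjusted p = 0.078). The other upstream probes differed by −0.30 (adjusted p = 0.14) and −0.48 (adjusted p = 0.11). Their sequences are printed because they read the body of the transcript and not its end, each with a reading frame free of stop codons.
*Pdk1*, from base 402 of the transcript (chr2:71713523-71713582 in mm9, + strand): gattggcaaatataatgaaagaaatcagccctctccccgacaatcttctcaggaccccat
*Pdk1*, from base 711 (chr2:71721635-71721929, spanning an intron): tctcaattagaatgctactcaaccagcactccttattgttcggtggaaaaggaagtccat

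A difference between upstream and 3′ probes can also follow RNA quality and labelling, so it was set beside other genes. Among 3424 transcripts with tested probes at least 500 bases apart, the upstream probe was dimmer than the 3′ one by a median of −2.39 to −2.23 in controls and −2.51 to −2.38 in the arrays labelled Atg5f/f;Vav. The median change was −0.10, with quartiles of −0.32 and 0.14. *Pdk1*, from base 402 against base 3195, changed by −0.40, and 17.5% of the transcripts changed by a lower value. *Vegfa*, from base 1455 against base 3026, changed the other way, by 0.38, and 90.4% of the transcripts changed by a lower value. The part of RNA quality in the signals of *Pdk1* and *Vegfa* was not tested.

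**Figure D2:**
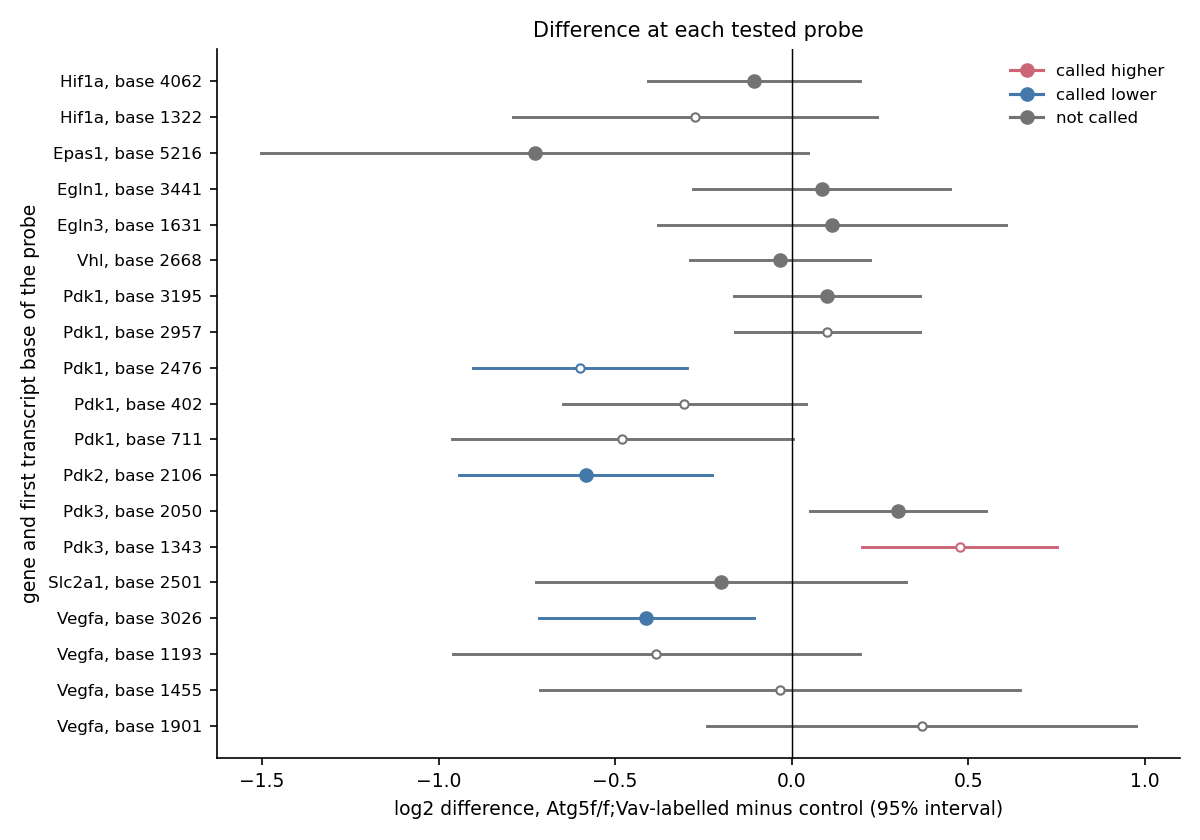
Log2 difference (horizontal axis, arrays labelled Atg5f/f;Vav minus control, n = 3 arrays each) with its 95% interval at each of the 19 tested probes (vertical axis, named by gene and by the transcript base where the probe starts, on the transcript given in the array's annotation). Filled points are the brightest probe of a gene, and colour marks calls. *Pdk1* is split between 2 probes near 0.10, which turn to −0.11 when arrays are scaled to the probes detected on all of them, and 3 probes from −0.60 to −0.30. Both *Pdk3* probes lie to the right of 0, and the *Vegfa* probes lie on either side. The *Hif1a* probe from base 1322 is on the opposite strand.

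Comparing kinases on the same array removes any factor that applies to the whole array. The log2 signal of *Pdk2* minus that of *Pdk3* was −1.62, −1.67 and −1.65 in controls and −2.45, −2.41 and −2.74 in the arrays labelled Atg5f/f;Vav, a 1.85-fold difference in the balance between them. The control values had an SD of 0.03, and every array of the other group lay below them. *Pdk1* minus *Pdk2* was 2.52 ± 0.08 in controls and 3.20 ± 0.21 in the others (SD, n = 3 arrays each), a 1.60-fold difference. *Pdk1* minus *Pdk3* was 0.87 ± 0.07 in controls and 0.67 ± 0.09 in the others. Groups did not overlap for any of these 3 pairs, and each reached p = 0.1 in the 2-sided exact permutation test, the smallest that 3 arrays against 3 can give (0.20 after adjustment over 6 pairs). These values are for the brightest probe of each gene. At these probes *Pdk2* was lower and *Pdk3* higher on every array labelled Atg5f/f;Vav than on any control. The separation of *Pdk2* minus *Pdk3* and its p were therefore fixed by the single genes. The 3 pairs are built from the same 3 signals and are not separate results. How often other pairs of genes do not overlap was not computed. Over the mean of a gene's probes, *Pdk1* minus *Pdk2* differed by 0.35 in place of 0.68 (exact p = 0.2) and *Pdk1* minus *Pdk3* by −0.62 in place of −0.20 (exact p = 0.1), and under quantile normalisation *Pdk1* minus *Pdk2* differed by 0.42. The balance of *Hif1a* to *Epas1* differed by 0.62 (exact p = 0.3), but by 0.14 with normexp background correction and 0.20 under quantile normalisation, *Epas1* being near background. That of *Egln1* to *Egln3* differed by −0.03 (exact p = 0.9; −0.28 under quantile normalisation) and that of *Slc2a1* to *Vegfa* by 0.21 (exact p = 0.6).

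**Figure D3:**
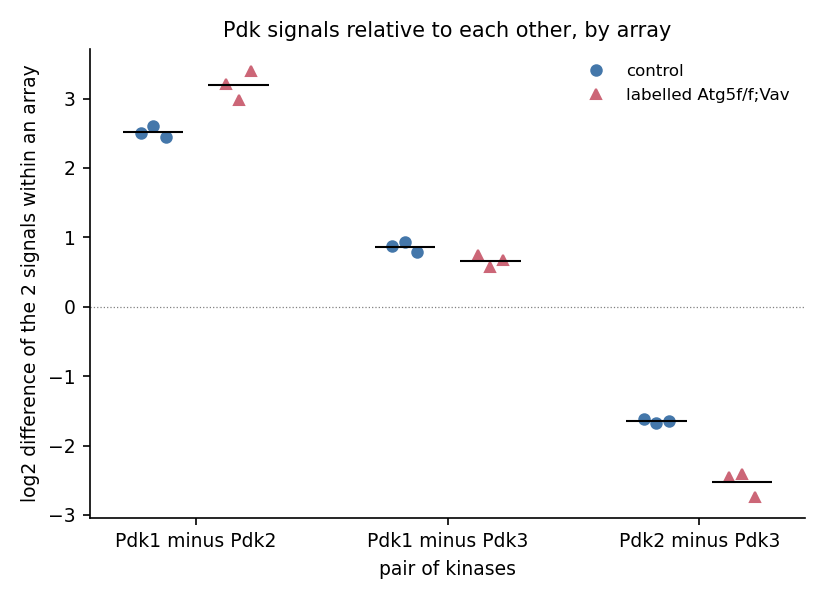
Log2 signal of 1 kinase minus that of another on the same array (vertical axis, brightest probe of each) for the 3 pairs (horizontal axis), with controls as circles, arrays labelled Atg5f/f;Vav as triangles and means as bars (n = 3 arrays each). *Pdk1* stands higher and *Pdk3* much higher relative to *Pdk2* in the labelled arrays, and *Pdk1* lower relative to *Pdk3*. The absolute height depends on the probes.

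*Slc2a1*, a widely expressed glucose transporter, was not called and was unevenly spread. Controls gave 0.83, 0.65 and 0.94, and the arrays labelled Atg5f/f;Vav gave 0.99, 0.69 and 0.14. Replicate 3 was lowest and the other two fell within or above the control range. The difference was −0.20 ± 0.22 (adjusted p = 0.50) and turned to 0.03 without replicate 3.

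*Vegfa*, which encodes the growth factor VEGF-A, fell at its brightest probe, near the 3′ end (mm9 chr17:46154387-46154446). That probe gave 0.17, 0.07 and −0.07 in controls and −0.39, −0.49 and −0.18 in the arrays labelled Atg5f/f;Vav. The groups did not overlap, and the fall was 1.33-fold (−0.41 ± 0.13, limma adjusted p = 0.047). The call stood without Atg5f/f;Vav replicate 3 (adjusted p = 0.028) and was lost without any other single array (adjusted p = 0.060 to 0.162). The other 3 probes were not called, at −0.38, −0.03 and 0.37 (adjusted p from 0.25 to 0.94), so the gene has no single direction. 1 of them is printed because it reads some isoforms alone: it encodes the basic stretch found in the longest isoforms, which bind heparan sulphate.
*Vegfa*, basic stretch (mm9 chr17:46159226-46159282, − strand; difference −0.03): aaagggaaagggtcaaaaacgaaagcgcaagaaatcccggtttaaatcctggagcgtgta
On this stretch, controls gave −1.29, −1.49 and −1.84 against −1.70, −0.97 and −2.04 in the arrays labelled Atg5f/f;Vav, and the groups overlapped.

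The genes around these 10 were taken from 5 lists, in which 73 of 83 genes were tested, 22 were called higher and 9 lower (42.5%, beside 34.1% of all genes). These calls include *Stc2* among the higher and *P4ha2* among the lower genes, which passed the filter on dim probes through 1 group alone. Differences are on the log2 scale. The genes called higher include subunits of the VHL ligase, of pyruvate dehydrogenase and several glycolytic enzymes. All 31 called genes kept their sign on the deposited values, with quantile normalisation, with normexp background correction and with the percentile described next, and 18 to 31 of them stayed called. Scaling to a 75th percentile of the probes above background everywhere moved the median of all probes from −0.06 to −0.27, and under it 12 were called higher and 15 lower. No gene of the lists was called without control replicate 1 or without control replicate 2, where calls over all probes fell from 11024 to 330 and 251. Without Atg5f/f;Vav replicate 2 there were 19.

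Of 15 oxygen-sensing genes tested, 7 rose and 2 fell, a share of 60%, beside 34.1% of all genes, with a median of 0.40. The calls depended on the scaling, with 2 higher and 3 lower (median 0.19) under the percentile of detected probes and 3 higher and 1 lower (median 0.12) under quantile normalisation. The 3 largest rises were *Tceb1* (elongin C, 0.70, adjusted p = 0.021), *Siah2* (a ligase that degrades prolyl hydroxylases, 0.68, adjusted p = 0.034) and *Hsp90aa1* (a chaperone of HIF-1α, 0.65, adjusted p = 0.023). Elongin C is a subunit of the ligase built around VHL. The remaining subunits, named after their values were seen, rose as well, with *Tceb2* (elongin B) at 0.50, *Cul2* at 0.40 and *Rbx1* at 0.51 (adjusted p = 0.024 to 0.038). Over the alternatives these 3 went down to 0.12, 0.19 and 0.15, and passed in 9, 6 and 10 of 16. *Vhl*, the substrate receptor, differed by −0.03 and was not called. *Egln2*, another prolyl hydroxylase, rose by 0.42 (adjusted p = 0.036), but went down to 0.09 over the alternatives and passed in 6 of 16. *Crebbp*, a coactivator that HIF recruits, fell by 0.54 (adjusted p = 0.042), and *P4htm*, a prolyl hydroxylase of the endoplasmic reticulum, fell by 0.45 (adjusted p = 0.032). *Arnt*, the partner of both HIF-α subunits (−0.23, adjusted p = 0.12), *Hif1an*, the asparagine hydroxylase (0.13, adjusted p = 0.53), and *Hif3a* (0.56, adjusted p = 0.16) were not called.

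Of 14 tested genes that bring pyruvate to acetyl-CoA or lactate, 6 rose and 1 fell, a share of 50%, beside 34.1% of all genes, with a median of 0.41. Under the percentile of detected probes 5 were higher and 2 lower (median 0.20), and under quantile normalisation 4 higher and 1 lower (median 0.29). The lactate transporter *Slc16a1* rose most (0.99 ± 0.23, adjusted p = 0.021), followed by *Ldha*, which makes lactate (0.88 ± 0.14, adjusted p = 0.015), and *Dld*, the E3 subunit of pyruvate dehydrogenase (0.67 ± 0.13, adjusted p = 0.017). *Ldhb*, which favours the reverse reaction, fell by 1.19 (SE 0.33, adjusted p = 0.033). *Pdha1*, the subunit that the kinases phosphorylate, rose by 0.51 (adjusted p = 0.030) and passed in 8 of 16 alternatives. *Pdhb* (0.56, adjusted p = 0.017) and the pyruvate carrier *Mpc1* (0.66, adjusted p = 0.020) also rose, and are named after their values were seen. The phosphatases that oppose the kinases were not called, with *Pdp1* at −0.36 (adjusted p = 0.13) and *Pdp2* at 0.12 (adjusted p = 0.47). *Pdk4*, the fasting-induced kinase, was well above background on 1 control array and on none labelled Atg5f/f;Vav, and was not tested. Its values were −4.73, −4.44 and −4.91 in controls against −7.03, −6.79 and −6.63. No bound on a fold could be set. The lowest signals well above background on the arrays labelled Atg5f/f;Vav averaged −4.60, which is above the control mean of −4.70.

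Of 31 tested HIF targets, 8 rose and 2 fell, a share of 32.3%, beside 34.1% of all genes, with a median of 0.09. Under the percentile of detected probes 4 were higher and 6 lower, with a median of −0.12, and under quantile normalisation 3 were higher and 4 lower, so the list has no settled balance. *Stc2* and *P4ha2* passed the filter on dim probes through 1 group alone, and without them 7 rose and 1 fell of 29. The risers were *Egln2*, already counted above, *Higd1a*, a small mitochondrial protein (0.85), the glycolytic enzymes *Tpi1* (0.61), *Aldoa* (0.58), *Gapdh* (0.53), *Pgk1* (0.51) and *Eno1* (0.50), all with adjusted p from 0.016 to 0.036, and *Stc2*. The last 4 enzymes are named after their values were seen. *Gapdh* and similar genes have processed pseudogenes, and whether the probes also match these was not examined. *Stc2*, which encodes a secreted glycoprotein, was not well above background on any control array and was at least 1.56-fold higher (adjusted p = 0.023). *P4ha2*, a collagen prolyl hydroxylase, was not well above background on any array labelled Atg5f/f;Vav and was at least 1.57-fold lower (adjusted p = 0.045). *Pfkfb4*, which sets the level of a glycolytic activator, fell by 0.82 (adjusted p = 0.028). The 21 that were not called include *Bnip3* (−0.11), *Car9* (−0.25), *Ankrd37* (0.12) and *Kdm3a* (−0.02), examples that were also chosen after their values were seen.

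**Figure D4:**
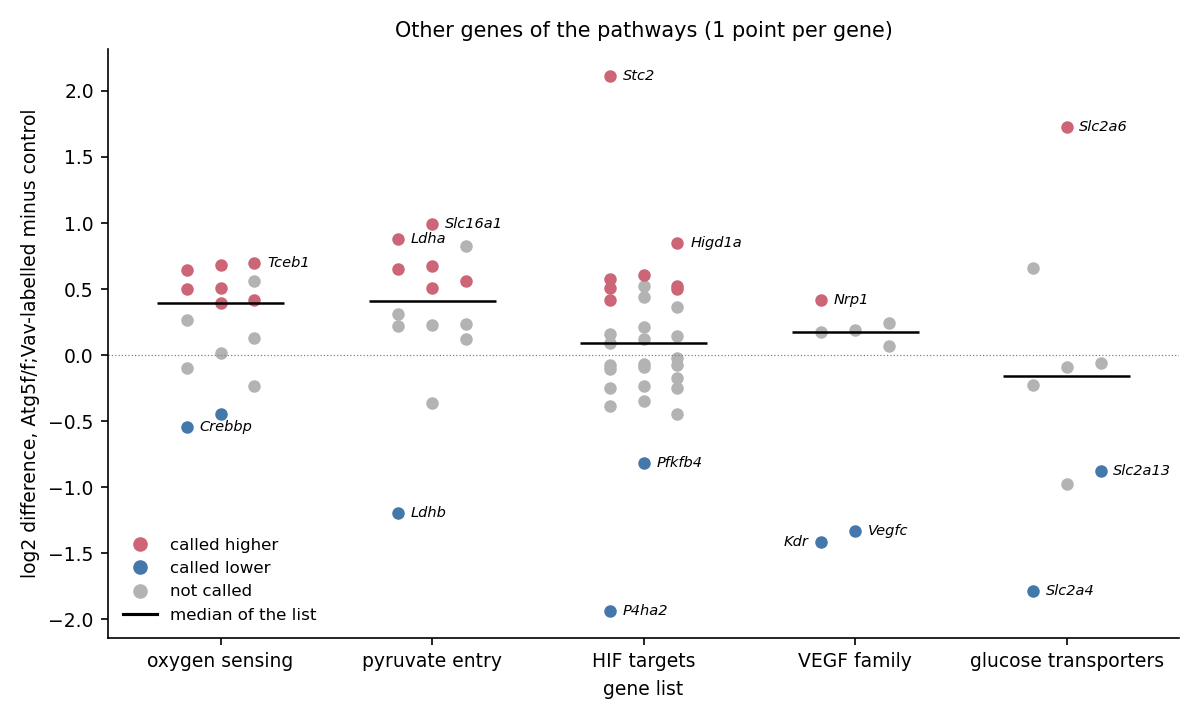
Log2 difference (vertical axis, arrays labelled Atg5f/f;Vav minus control, n = 3 arrays each) for every tested gene of the 5 lists (horizontal axis), 1 point per gene, coloured by call, with each list's median as a bar. The medians are 0.40, 0.41, 0.09, 0.18 and −0.16 from left to right, and those of the HIF targets and the VEGF family turn to −0.12 and −0.03 under the percentile of detected probes. *Egln2* and *Slc2a3* each stand in 2 lists, and the points of *Stc2* and *P4ha2* include a group below background.

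In the VEGF family, 1 of 7 tested genes rose and 2 fell (0 and 2 under the percentile of detected probes), a share of 42.9%, beside 34.1% of all genes. The receptor *Kdr* fell by 1.42 (adjusted p = 0.014) and the ligand *Vegfc* by 1.33 (adjusted p = 0.028), while the co-receptor *Nrp1* rose by 0.41 (adjusted p = 0.030). *Kdr* was dim, being well above background on 3 control arrays and on 2 labelled Atg5f/f;Vav. The size of its difference is therefore uncertain, and it ranged from −1.62 to −0.68 over the alternatives. *Flt1* was at 0.07 (adjusted p = 0.89). The endothelial and stem cell marker sums given above were lower in the same arrays, as was that of 8 stromal markers (2.78 to 3.27 against 3.36 to 5.35), of which 6 were tested and 3 fell. *Col1a1*, 1 of these 3, was well above background on the control arrays alone and passed the filter on dim probes through them. Its values there were −4.14, 3.23 and 2.95. It was at least 39.0-fold lower (adjusted p = 0.045), a bound that runs from 16.1 to 207 when 1 control is left out and that rests on control replicates 2 and 3. The part of these cells in *Vegfa*, *Vegfc* and *Kdr* was not tested. Among 8 tested glucose transporters other than *Slc2a1*, 1 rose and 2 fell, a share of 37.5%, beside 34.1% of all genes. *Slc2a6*, a lysosomal member, rose by 1.73 (adjusted p = 0.015). *Slc2a4*, the insulin-responsive transporter, fell by 1.78 (adjusted p = 0.021) and *Slc2a13*, an inositol transporter, fell by 0.88 (adjusted p = 0.025). *Slc2a4* was also well above background on only 2 of the arrays labelled Atg5f/f;Vav, and its difference ranged from −2.26 to −0.94 over the alternatives. *Slc2a3*, the high-affinity transporter, was at −0.09 (adjusted p = 0.65).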

How the data were processed

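LSK cells of 3 control and 3 Atg5f/f;Vav samples, sorted by the authors from BM into lysis reagent, were profiled on 1-colour arrays. The deposited scanner files hold an intensity per spot that Agilent Feature Extraction 12.0.3.1 had corrected for background, without scaling between arrays. A second deposited table gives normalised signal, in which each intensity is divided by its array's 75th percentile. It was used as an alternative.

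From the intensities, log2 values were scaled by subtracting the 75th percentile of the array, computed without control spots. Spots flagged as outliers were dropped, and those of a probe averaged. The test, on probes detected well above background by 3 or more of the 6 arrays, was that of limma (version 3.58.1, R 4.3.3) with lmFit, eBayes and Benjamini-Hochberg adjustment over all 32074 probes (2-sided, threshold 0.05). A gene is represented by its tested probe with the highest mean signal. Pairs of members were compared by a 2-sided exact permutation test over arrays. For a probe below background in 1 group, a lower bound on the fold was set from the lowest signal well above background on each of those arrays. The adjusted p beside such a bound is that of the measured signals and does not test the bound. Arrays have no read depth, and the precision is limited by how many there are. The limma fit and the t-test were run on simulated arrays with known changes, and the other steps were not.

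The members and lists were chosen with earlier results of these data known. Named are all members, the genes set beforehand for each pathway (*Pdk4*, *Hif3a*, *Arnt*, *Egln2*, *Hif1an*, *Pdha1*, *Pdp1*, *Pdp2*, *Slc2a3*, *Kdr* and *Flt1*), at most the 3 largest rises and falls called in each list, the 3 genes most correlated with the called member that rose or fell most, and marker genes above background in 1 group alone, apart from those marked in the text. Lists of macrophage, erythroid, neutrophil, B cell, T and NK cell and megakaryocyte markers were also summed. The probe positions are those of mm9 in the files, whereas the promoters follow GRCm38.p6, and neither was converted. No block for slide or scan could be fitted, since there was 1 of each. Replicate numbers were not taken to pair the samples.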

Additional observations from a re-analysis of the deposited data

How the results depend on the processing

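*Pdk2* kept its direction under all 17 alternatives (−0.79 to −0.43) and passed in 11, *Vegfa* under all 17 (−0.62 to −0.12), passing in 6, and *Pdk3* under all 17 (0.10 to 0.39), passing in 4. Much of this was fixed beforehand. Alternatives that change only the test or the filter repeat the same difference. Leaving out 1 array cannot turn a sign where the groups do not overlap, as for these 3 genes. Their direction could turn only under the remaining alternatives. *Epas1* passed in 2 of 16, of which 1 leaves out the single array labelled Atg5f/f;Vav that was above background. The main count of called members was 2. It was 3 with normexp background correction and with an intensity trend in eBayes. *Pdk3* was called higher in both (limma adjusted p = 0.048 and 0.039). It was 1 on the deposited values, with quantile normalisation and with the replicate block, and 0 with no filter on dim probes and by the methods' t-test, by which 3 members had an unadjusted p under 0.05. The share of all genes with such a p by the t-test was not computed. Leaving out 1 array gave 0 to 3. Over all probes, calls numbered 11024, 4538 with no filter, 0 by the methods' t-test and 251 to 10304 without 1 array. Those of list genes numbered 31, 7 with no filter, 0 by the t-test and 0 to 28 without 1 array. With the percentile over detected probes, calls split into 3365 higher and 10086 lower, in place of 5540 and 5484. The cause was not tested.

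Signs turned under the percentile over detected probes for *Egln1* (−0.12), *Egln3* (−0.093) and *Pdk1* (−0.11), under quantile normalisation for *Egln1* (−0.12) and *Pdk1* (−0.12), and over the mean of probes for *Pdk1* (−0.24) and for *Slc2a1* minus *Vegfa* (−0.085). Without 1 array, the difference ranged from −0.028 (without Atg5f/f;Vav replicate 1) to 0.20 for *Egln1*, from −0.089 (without that replicate) to 0.24 for *Egln3*, from −0.071 to 0.024 (without Atg5f/f;Vav replicate 3) for *Vhl*, from −0.39 to 0.032 (also without replicate 3) for *Slc2a1* and from −0.14 to 0.061 for *Egln1* minus *Egln3*. Same-numbered samples correlated at −0.07 to 0.28 in their deviations from the group means, and different-numbered ones at −0.36 to 0.17. Such deviations cancel within a group, so these values cannot decide whether samples were paired. The paper used unpaired tests, and the numbers were not taken as pairs. The block changed the calls of *Pdk2* (adjusted p = 0.052), *Vegfa* (0.085) and *Epas1* (0.022), and 10173 probes were called with it. Signals below background carry at most bounds, which limits *Epas1*, *Kdr*, *Slc2a4*, *Stc2* and *P4ha2*. For *Pdk4* no bound could be set.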

Other observations

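The summed log2 signals of markers of other cell types are given here as ranges, controls first. Macrophage markers gave 2.29 to 2.69 against 2.72 to 2.75, and megakaryocyte markers 3.01 to 3.23 against 2.78 to 2.89, in both cases without overlap (2-sided exact permutation p = 0.1, the smallest possible). Of 5 macrophage markers tested, however, 0 were called higher and 1 was called lower. Of 7 megakaryocyte markers tested, 1 was called higher and 3 lower. The sums overlapped for erythroid markers (4.78 to 5.61 against 5.23 to 6.53), neutrophil markers (7.50 to 8.22 against 7.93 to 8.24), B cell markers (3.20 to 3.62 against 3.42 to 4.16) and T and NK cell markers (2.85 to 3.43 against 3.35 to 3.50). LSK markers gave 7.05 to 7.17 against 6.53 to 7.24, a sum in which *Ly6a* alone was called, as given above. Of the erythroid markers, 5 of 10 were called higher and 3 lower, and of the neutrophil markers 3 of 9 were called higher and 5 lower. The erythroid differences ran from −2.29 (*Slc4a1*) to 3.80 (*Car1*), genes named after their values were seen, so an overlapping sum can hide large opposite differences. *Ppbp*, a megakaryocyte gene, was well above background on the control arrays alone and was at least 1.22-fold lower in the arrays labelled Atg5f/f;Vav (limma adjusted p = 0.011), having passed the filter on dim probes through the controls alone. *Klrb1c*, an NK cell gene, was also detected in the controls alone and was not called (adjusted p = 0.071). Whether any of these cells contribute to the signals of the hypoxia factors and kinases was not tested.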
